A study of Mus musculus with 11 samples.

Results

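The Hox genes of the mouse lie in 4 clusters, Hoxa to Hoxd, and their transcripts were measured on 11 oligonucleotide arrays (Affymetrix MG_U74Av2) in embryonic stem (ES) cell differentiation and in embryonic fibroblasts. The members were all probe sets annotated with exactly 1 symbol of the form Hox, cluster letter and paralogue number. They came to 38 of the 12488 probe sets on the array and covered 31 genes, against 39 Hox genes in the RefSeq annotation. Cluster a on chromosome 6 had 14 probe sets for 10 genes, cluster b on chromosome 11 had 10 for 9 genes, cluster c on chromosome 15 had 5 for 5 genes and cluster d on chromosome 2 had 9 for 7 genes.

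The samples were R1 mouse ES cells differentiated for 4+8 days (3 arrays), R1 cells differentiated for 4+11 days (3 arrays), mouse embryonic fibroblast feeder cells (2 arrays) and undifferentiated R1 cells kept on such a feeder layer (3 arrays). The differentiation followed a published protocol that yields cells expressing nestin, a neural progenitor filament protein, and the labels give no genetic change or added agent for any group. The ES cell samples are described as independent cultures, while nothing says that the 2 feeder arrays were, so p-values for the feeder cells may measure only technical spread. One feeder array, replicate 10, carries the R1 line as its source name and was placed by its title. All ES-derived samples come from 1 line, and the undifferentiated samples were grown with the fibroblasts that form the feeder group.

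Hox proteins are homeodomain transcription factors that give cells their position along the body axis. Genes at the 3′ end of a cluster (low paralogue numbers) are switched on early and reach far forward in the embryo, those at the 5′ end (high numbers) later and further back. Undifferentiated ES cells keep the clusters largely silent under Polycomb repression, retinoic acid and posterior signals open them in order, and fibroblasts keep a Hox pattern that records the body site they came from. Here paralogues 1 to 3 are called anterior, 4 to 8 central and 9 to 13 posterior.

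The arrays of the 4+8 day cells were a scan session and chip lot of their own and were deposited at a common scale, with a trimmed mean of 200.1 against 86.2 to 160.2 on the other 8 arrays. The recorded wash settings of the 4+8 day arrays also differed from those of the other 8 arrays, with no wash protocol named. Among those 8, undifferentiated replicate 9 and 4+11 day replicate 12 had other wash settings than the remaining arrays. Differences that involve the 4+8 day cells and differences of scan session, chip lot or wash settings cannot be told apart. All values below are probe-set intensities after quantile normalisation over the 11 arrays. A probe set was tested if it exceeded 33.4, the 40th percentile of all values, on at least 2 arrays, and a difference was called at a Benjamini-Hochberg adjusted p below 0.05 in limma over all 8940 probe sets tested. The summed level of 8 ES cell markers ran from 318 to 1783 at 4+8 days, from 288 to 2275 at 4+11 days, from 177 to 201 in feeder cells and from 17122 to 19364 in undifferentiated cells. Over 9 markers of cardiac cells and mesoderm the sums were 4502 to 9825 at 4+8 days, 476 to 1583 at 4+11 days, 172 to 174 in feeder cells and 174 to 218 in undifferentiated cells. The sums of the 8 neural progenitor markers were 1865 to 5677 at 4+8 days, 1466 to 11264 at 4+11 days, 1924 to 2290 in feeder cells and 3912 to 4647 in undifferentiated cells. The feeder and undifferentiated ranges lay inside those of both differentiated groups. Most of the sum in undifferentiated cells was Sox2, which is also on the ES cell list. Sox2 averaged 616 ± 654 at 4+8 days, 894 ± 1059 at 4+11 days, 44.7 ± 5.21 in feeder cells and 3659 ± 373 in undifferentiated cells (SD). The sums therefore do not compare neural progenitor levels of the groups apart from Sox2. Nestin (Nes) itself averaged 281 ± 119 at 4+8 days, 460 ± 120 at 4+11 days, 462 ± 157 in feeder cells and 192 ± 25.9 in undifferentiated cells (SD), and by limma it was higher than in undifferentiated cells at 4+11 days (log2 1.20 ± 0.32, adjusted p = 0.0260) and in feeder cells (1.20 ± 0.35, 0.0394). In such bulk samples, fewer cells of a type and less RNA per cell cannot be told apart.

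Hox signal was widest in the feeder cells. Of the 38 probe sets, 6 exceeded 33.4 on every 4+8 day array, 6 on every 4+11 day array, 20 on both feeder arrays and 6 on every undifferentiated array, where a group of 2 arrays meets this more easily than one of 3. Over all non-control probe sets the shares were 48.2% at 4+8 days, 54.3% at 4+11 days, 57.3% in feeder cells and 54.6% in undifferentiated cells. The Hox share was thus below that of all probe sets in every group, and closest to it in feeder cells. Per array the counts were 12 or 13 at 4+8 days, 8 at 4+11 days, 20 and 21 in feeder cells and 8 to 12 in undifferentiated cells. Among the 12 posterior probe sets, 5 exceeded it on both feeder arrays and 0 did so throughout any ES-derived group. Of the 20 central ones, 5 passed throughout the 4+8 day arrays, 6 the 4+11 day arrays, 13 the feeder arrays and 6 the undifferentiated arrays. The 6 anterior ones gave 1 at 4+8 days, 0 at 4+11 days, 2 in feeder cells and 0 in undifferentiated cells. The group mean was highest in feeder cells for 18 probe sets, at 4+8 days for 15, in undifferentiated cells for 3 and at 4+11 days for 2. In cluster b 8 of 10 probe sets were highest at 4+8 days, beside 4 of 14 in cluster a, 0 of 5 in cluster c and 3 of 9 in cluster d, a description with no test.

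**Figure D1:**
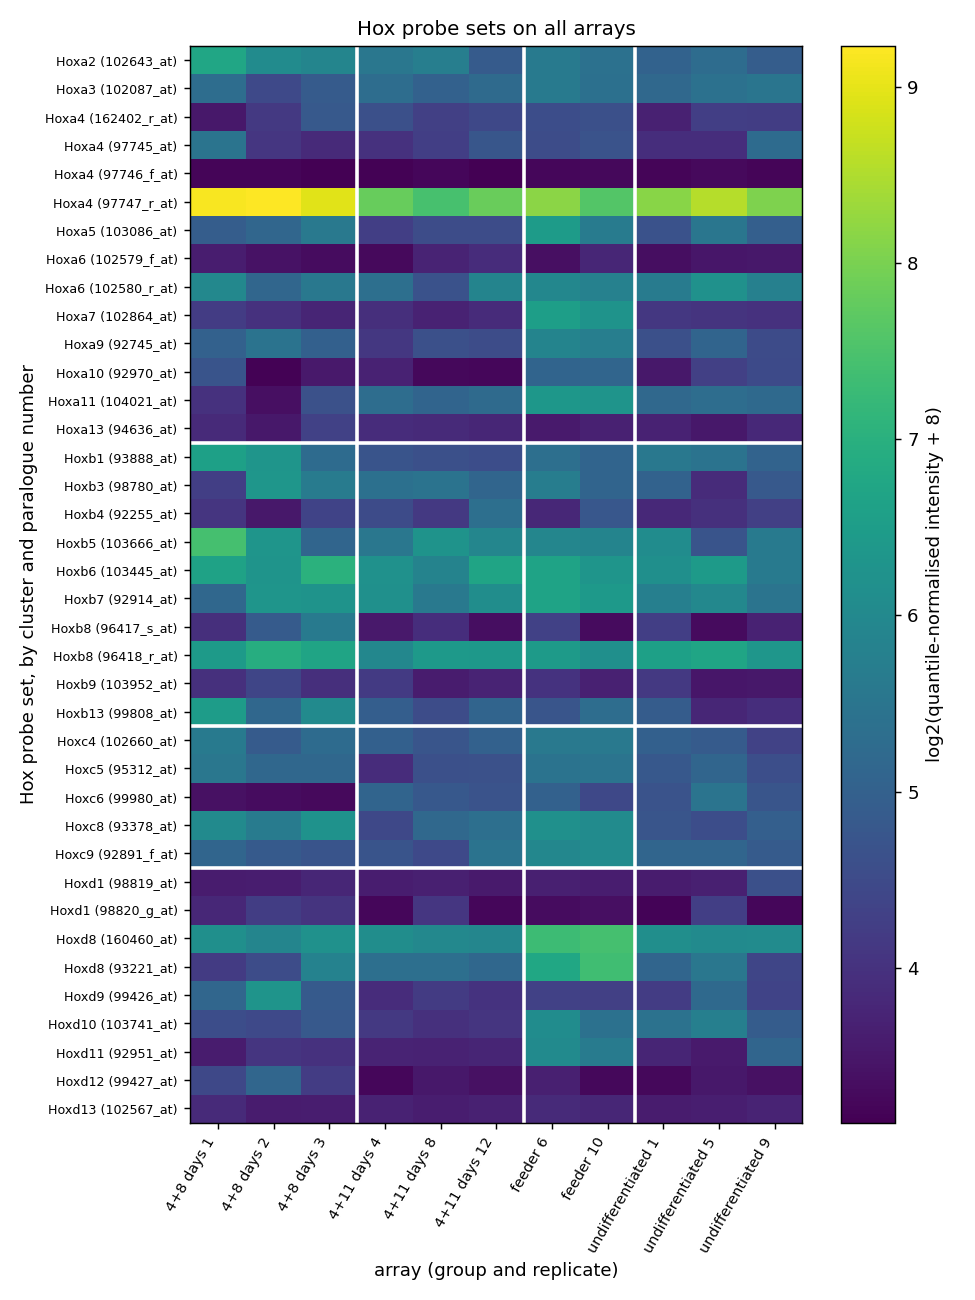
Normalised intensity (log2 of value plus 8, colour) of the 38 Hox probe sets, ordered by cluster and paralogue number, on the 11 arrays, with the 4+8 day arrays at the left, then 4+11 days, feeder and undifferentiated cells. Hoxa7, Hoxd8 and Hoxd11 are brighter on both feeder arrays than on every other array, and most posterior probe sets are dim in the ES-derived cells.

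Feeder cells were first compared with the undifferentiated ES cells that grew on such a layer. Of the 38 probe sets, 23 passed the filter, and 8 of these were called higher and 0 lower in feeder cells, where 10% of all tested probe sets were called higher and 10.3% lower (20.4% in all). They belong to the posterior genes Hoxa9, Hoxa11, Hoxc9 and Hoxd11 and to the central genes Hoxa7, Hoxc8 and Hoxd8 (both probe sets), so that clusters a, c and d had called members and cluster b had 0 of 7 tested. Hoxa7, Hoxa11 and Hoxd11 passed the filter only through the 2 feeder arrays. Without any filter, 17 of the 38 probe sets had feeder values above every undifferentiated value and 0 had them below, beside 25.8% and 25.6% (51.4% in all) of the 12422 non-control probe sets. The median log2 difference over the 38 was 0.40, against -0.02 over all non-control probe sets.

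Hoxa7, a central gene known for its part in patterning the trunk vertebrae, had the largest difference and the lowest adjusted p of the Hox probe sets in this comparison. Its intensity was 10.5, 7.89 and 5.51 at 4+8 days (replicates 1, 2 and 3), 7.41, 4.95 and 6.61 at 4+11 days (replicates 4, 8 and 12), 84.9 and 68.6 in feeder cells (replicates 6 and 10) and 9.33, 8.40 and 7.97 in undifferentiated cells (replicates 1, 5 and 9), the order of arrays used throughout. Only the feeder arrays were above the filter value. The log2 difference was 2.35 ± 0.20 (SE) for feeder against undifferentiated cells (limma adjusted p = 0.000129), -2.41 ± 0.20 for 4+8 day against feeder cells (0.000187) and -2.56 ± 0.20 for 4+11 day against feeder cells (0.000289). All log2 differences were taken on log2 of the value plus 8, which understates the change of dim probe sets. These 3 comparisons share the feeder arrays. Hoxa7 too dropped out of the filter without a feeder array. With its probe set kept, all 3 calls held without either one (adjusted p up to 0.00971).

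Hoxd8 lies on the 3′ side of the posterior genes of cluster d, and both of its probe sets were highest on the feeder arrays. The first, 160460_at, read 63.7, 51.7 and 66.2 at 4+8 days, 61.3, 55.0 and 53.3 at 4+11 days, 150.0 and 164 in feeder cells and 62.3, 58.0 and 59.6 in undifferentiated cells. The ES-derived groups overlapped one another and lay below both feeder arrays. The log2 difference was 1.28 ± 0.18 for feeder against undifferentiated cells (adjusted p = 0.00184), -1.27 ± 0.18 for 4+8 day against feeder cells (0.00142) and -1.36 ± 0.18 for 4+11 day against feeder cells (0.00394). The second was lost at the deposited scale (-0.65, 0.0770) and the third without feeder replicate 10 (0.0821). The second, 93221_at, read 10.2, 15.3 and 49.3 at 4+8 days, 32.7, 32.7 and 27.6 at 4+11 days, 101 and 155 in feeder cells and 26.6, 38.5 and 13 in undifferentiated cells. It was called in feeder against undifferentiated cells (log2 2.04 ± 0.47, adjusted p = 0.0148) and in 4+8 day against feeder cells (-2.20 ± 0.47, 0.00891). The first of these was lost without either feeder array or undifferentiated replicate 9 (up to 0.125) and the other without feeder replicate 10 (0.0895).

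Hoxd11, a posterior gene known for its part in the forearm and the caudal spine, read 4.05, 8.61 and 7.95 at 4+8 days, 5.17, 4.95 and 5.41 at 4+11 days, 58.6 and 43.1 in feeder cells and 5.59, 3.85 and 26.7 in undifferentiated cells. Undifferentiated replicate 9 stood above the other ES-derived arrays and below both feeder arrays. The log2 difference was 1.72 ± 0.40 for feeder against undifferentiated cells (adjusted p = 0.0152), -1.98 ± 0.40 for 4+8 day against feeder cells (0.00676) and -2.15 ± 0.40 for 4+11 day against feeder cells (0.0199). Without undifferentiated replicate 1 the first call was lost (adjusted p = 0.0550), and without 4+11 day replicate 4 the third (0.0683). Hoxd11 dropped out of the filter when a feeder array was left out. With its probe set kept, a choice made after seeing the data, the calls for feeder against undifferentiated cells and for 4+11 day against feeder cells were lost without either feeder array (up to 0.129 and 0.176), and that for 4+8 day against feeder cells without replicate 6 (0.0596). Its neighbour Hoxd12 never exceeded the filter value: it read 10.4 to 27.0 at 4+8 days and at most 4.59 on the other 8 arrays. Hoxd13, the end of the cluster, ranged between 3.95 and 6.43 on all 11 arrays.

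The stretches upstream of Hoxa7, Hoxd8 and Hoxd11, the genes called in all 3 feeder comparisons by at least 1 probe set, are shown with that of the dim neighbour Hoxd12. Each is 250 bases ending at the base before the RefSeq transcript start in build GRCm38.p6, written 5′ to 3′ on the gene's strand. Hoxd11 has 2 annotated starts. Capitals mark TTTATG or its reverse complement CATAAA, the core motif of the caudal-type (Cdx) factors that drive trunk and tail Hox genes.
Hoxa7, chr6:52218574-52218823, minus strand: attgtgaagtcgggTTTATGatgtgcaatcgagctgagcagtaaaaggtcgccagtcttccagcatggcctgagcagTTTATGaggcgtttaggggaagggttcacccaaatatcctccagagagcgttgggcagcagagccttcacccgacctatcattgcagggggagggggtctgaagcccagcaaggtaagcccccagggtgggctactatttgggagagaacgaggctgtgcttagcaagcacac
Hoxd8, chr2:74704365-74704614, plus strand: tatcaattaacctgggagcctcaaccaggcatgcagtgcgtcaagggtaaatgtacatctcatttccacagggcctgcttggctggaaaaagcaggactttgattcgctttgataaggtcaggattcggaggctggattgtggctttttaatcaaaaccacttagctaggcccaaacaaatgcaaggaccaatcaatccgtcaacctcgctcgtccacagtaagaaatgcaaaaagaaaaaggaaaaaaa
Hoxd11 first start, chr2:74679308-74679557, plus strand: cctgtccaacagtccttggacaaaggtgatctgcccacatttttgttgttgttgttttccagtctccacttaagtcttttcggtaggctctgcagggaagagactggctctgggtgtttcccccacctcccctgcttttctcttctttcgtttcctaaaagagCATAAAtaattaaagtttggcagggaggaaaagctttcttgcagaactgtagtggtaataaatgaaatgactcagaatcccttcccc
Hoxd11 second start, chr2:74682073-74682322, plus strand: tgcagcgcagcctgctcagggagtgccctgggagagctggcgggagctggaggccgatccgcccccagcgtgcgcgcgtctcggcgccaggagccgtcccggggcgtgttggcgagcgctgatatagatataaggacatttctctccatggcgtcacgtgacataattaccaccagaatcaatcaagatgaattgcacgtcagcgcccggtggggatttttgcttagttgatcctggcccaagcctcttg
Hoxd12, chr2:74674763-74675012, plus strand: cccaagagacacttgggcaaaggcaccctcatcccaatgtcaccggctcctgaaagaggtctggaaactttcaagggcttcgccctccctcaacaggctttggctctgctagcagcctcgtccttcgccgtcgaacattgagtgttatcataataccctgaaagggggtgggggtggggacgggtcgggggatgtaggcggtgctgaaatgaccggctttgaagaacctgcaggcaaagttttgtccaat

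The Hoxa7 stretch held the Cdx motif at 2 places, 236 and 173 bases before the start, the first Hoxd11 start held it 87 bases before, and the other stretches held none. Promoter sequence was matched for 20 of the 31 Hox genes, 22 starts in all. The motif, on either strand, was in 3 of these 22 (13.6%) and in 10.8% of all 32851 promoters of that length. CCAAT or its reverse ATTGG was in 12 of 22 Hox promoters (54.5%) and 33.8% of all, and the GC box GGGCGG or CCGCCC in 10 (45.5%) and 32.7%. The short retinoid receptor motif AGGTCA or TGACCT was in 4 Hox promoters (18.2%) and 14.02% of all, and TATAAA or TTTATA in 3 (13.6%) and 12.4%. The median GC content was 59.2% over the Hox promoters and 52.4% over all. No Cdx match overlapped another of these motifs, and a match of letters is a description, not a binding site. The Cdx1, Cdx2 and Cdx4 probe sets themselves did not pass the filter. Their means in feeder cells were 8.42 ± 6.46, 8.33 ± 4.54 and 4.15 ± 3.21 (SD), and their highest group mean was 23.2, for Cdx2 at 4+8 days.

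Hoxa9 and Hoxa11 are the posterior genes of cluster a called in feeder cells. Hoxa9, which acts in blood progenitors as well as in axial patterning, read 24.2, 35.7 and 24.01 at 4+8 days, 9.44, 16.6 and 15.1 at 4+11 days, 50.4 and 45.5 in feeder cells and 16.5, 26.3 and 15.05 in undifferentiated cells. Both feeder arrays were above every ES-derived array. Its log2 difference was 1.06 ± 0.26 for feeder against undifferentiated cells (adjusted p = 0.0176) and -1.38 ± 0.26 for 4+11 day against feeder cells (0.0195). Each of these calls was lost without either feeder array, with undifferentiated replicate 1 or 9 or 4+11 day replicate 4 also deciding one of them, and the adjusted p then reached at most 0.129 in the first and 0.165 in the second. Hoxa11, needed for the forearm and the uterus, read 7.83, 2.41 and 16.8 at 4+8 days, 31.7, 26.0 and 29.8 at 4+11 days, 74.6 and 70.6 in feeder cells and 28.3, 31.3 and 28.97 in undifferentiated cells. The 4+8 day arrays were lowest and the feeder arrays highest, with the 4+11 day and undifferentiated arrays between them and overlapping. The log2 difference was -2.33 ± 0.31 for 4+8 day against feeder cells (adjusted p = 0.000954) and 1.10 ± 0.31 for feeder against undifferentiated cells (0.0314). The second call was lost when any 1 of the 3 undifferentiated arrays was left out (adjusted p up to 0.0851) and, with the probe set kept, without either feeder array (up to 0.165).

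Cluster c gave Hoxc8 and Hoxc9. Hoxc8, a thoracic gene, read 57.9, 42.5 and 67.5 at 4+8 days, 13.8, 28.3 and 32.7 at 4+11 days, 65.1 and 59.5 in feeder cells and 18.8, 15.7 and 23.3 in undifferentiated cells. The 4+8 day and feeder arrays overlapped and lay above the 4+11 day and undifferentiated arrays. Its log2 difference was 1.37 ± 0.29 for feeder against undifferentiated cells (adjusted p = 0.0107), a call lost without either feeder array (up to 0.0890). Hoxc9, which marks the thoracic spinal cord, read 26.8, 20.9 and 18.0 at 4+8 days, 18.2, 14 and 35.6 at 4+11 days, 53.9 and 59.5 in feeder cells and 26.5, 26.6 and 21.5 in undifferentiated cells. Only the feeder arrays stood apart. The log2 difference was 0.98 ± 0.28 for feeder against undifferentiated cells (adjusted p = 0.0373), lost when any 1 of those 5 arrays was left out (up to 0.187), and -1.12 ± 0.28 for 4+8 day against feeder cells (0.0173), lost without either feeder array (up to 0.118) and at the deposited scale (-0.25, 0.536). Hoxc9 is measured by a probe set whose suffix marks probes shared with similar transcripts.

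**Figure D2:**
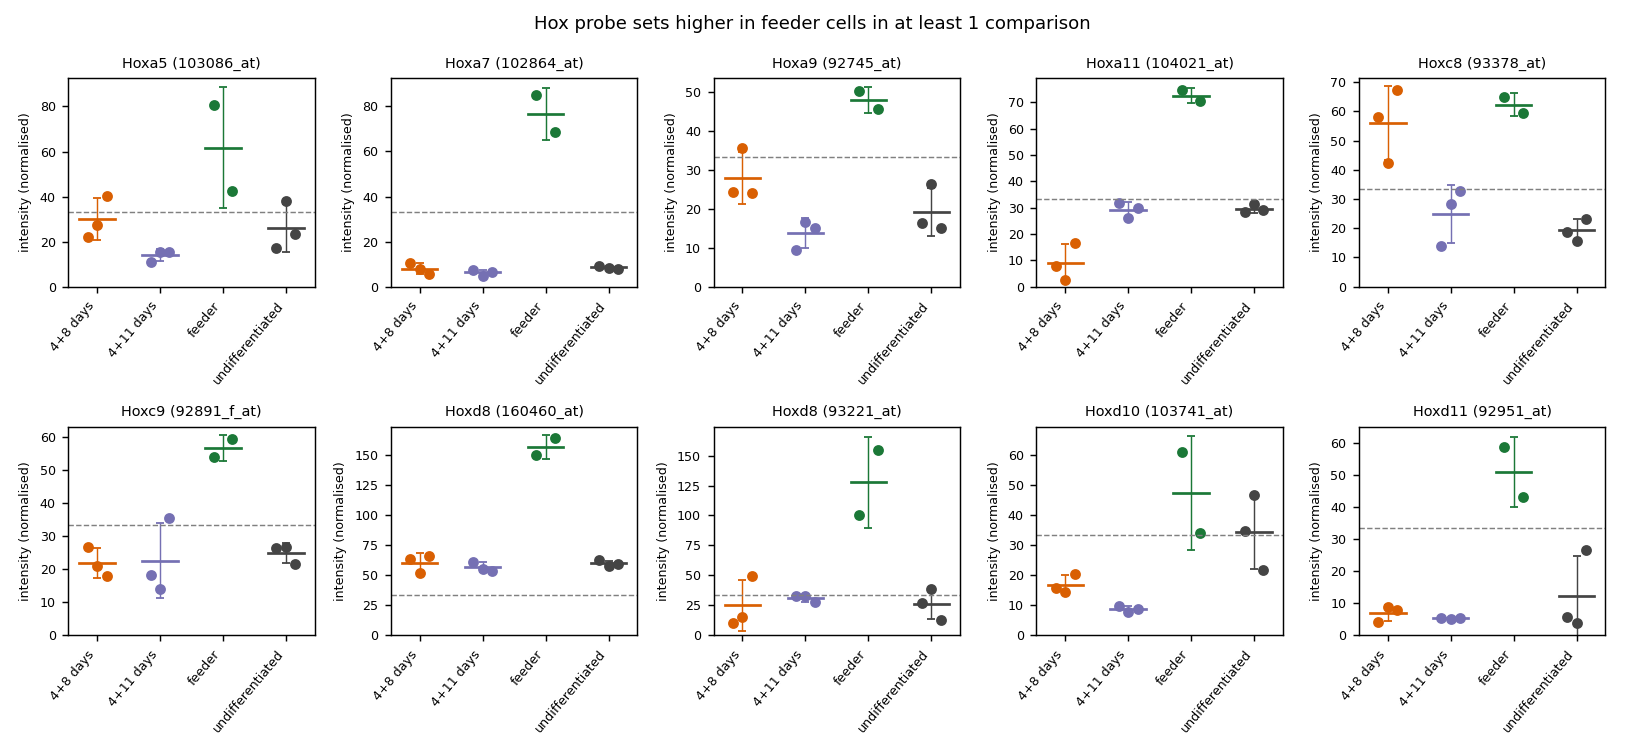
Normalised intensity (vertical axis of each panel, linear from 0) on each array of the Hox probe sets that were higher in feeder cells in at least 1 comparison; points are arrays, wide bars group means, thin bars SD and the dashed line the filter value of 33.4, with groups in the order 4+8 days, 4+11 days, feeder and undifferentiated cells. For Hoxa7 the feeder arrays read 84.9 and 68.6 and no other array exceeds 10.5.

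The feeder, 4+11 day and undifferentiated arrays shared 1 scan session. They fell into 3 fluidics runs, inferred from the recorded hybridisation times, of which 2 held all of these groups. In run 2 the only undifferentiated array was replicate 9, whose wash settings differed from those of the feeder and 4+11 day arrays there. Differences from undifferentiated cells in run 2 and differences of wash settings cannot be told apart. For feeder against undifferentiated cells the log2 differences in run 1 and run 2 were 2.46 and 2.26 for Hoxa7, 1.21 and 1.35 for Hoxd8 (160460_at), 1.44 and 2.95 for Hoxd8 (93221_at), and 2.39 and 0.56 for Hoxd11. They were 1.01 and 1.22 for Hoxa9, 1.13 and 1.09 for Hoxa11, 1.54 and 1.11 for Hoxc8, and 0.84 and 1.19 for Hoxc9. The direction was the same in both runs for all 8 probe sets, each run value resting on 1 feeder array. It could not have differed, since both feeder values of each probe set were above every undifferentiated value. The runs therefore add no separate support for the direction. With run as a block, 10 Hox probe sets were called higher in feeder cells, and at the deposited scale 11. Calls over all probe sets, in either direction, also rose. They numbered 1820 in the main fit, 3231 with run as a block and 1950 at the deposited scale.

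Feeder fibroblasts grew with the undifferentiated cells, so their own markers were set beside the Hox values. The summed level of the 11 fibroblast markers ran from 11869 to 41381 at 4+8 days, from 15237 to 25491 at 4+11 days, from 38785 to 44045 in feeder cells and from 9489 to 14522 in undifferentiated cells. All 11 exceeded the filter value on every feeder and every undifferentiated array, 7 did so at 4+8 days and 8 at 4+11 days. Their median level relative to the feeder mean was 54.6% at 4+8 days, 35.2% at 4+11 days and 26.1% in undifferentiated cells, but single markers went the other way. In undifferentiated cells Mmp3, a matrix protease, stood at 537% and the chemokine Cxcl1 at 165% of the feeder mean, and Lum, a matrix proteoglycan, stood at 179% at 4+8 days and 134% at 4+11 days. Undifferentiated cells had 11.2% of the feeder mean for Hoxa7, 38.2% and 20.4% for the Hoxd8 probe sets, 23.7% for Hoxd11 and 40.7% for Hoxa11. For Hoxa9, Hoxc8 and Hoxc9 the shares were 40.2%, 30.9% and 43.9%. The median over the 14 tested Hox probe sets with their highest mean in feeder cells was 43.6% at 4+8 days, 36.8% at 4+11 days and 41.6% in undifferentiated cells. This is a description with no test, and that choice of probe sets alone puts every share below the feeder mean. These medians too include group means below the filter value. Thy1, a surface protein of fibroblasts, averaged 15.5 at 4+8 days, 270.0 at 4+11 days, 1712 in feeder cells and 735 in undifferentiated cells. The part of feeder fibroblasts in the Hox values of the ES-derived samples was not tested.

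Differentiated cells were next set against feeder cells. At 4+11 days 6 of the 23 tested Hox probe sets were lower and 0 higher than in feeder cells, where 1.8% of all tested probe sets were called lower and 1.13% higher (2.93% in all). They were Hoxa5, Hoxa7, Hoxa9, Hoxd8 (160460_at), Hoxd10 and Hoxd11. Of all 38 probe sets, 18 lay below both feeder arrays throughout and 1 above, beside 17.9% and 17.1% of non-control probe sets (35% in all), and their median log2 difference was -0.25, against 0.00 over all. Most or all of these 6 calls were lost when either feeder array was left out, partly because Hoxa7 and Hoxd11 then no longer passed the filter. Such fits leave 1 feeder array, and most calls over all probe sets were lost in them as well. With the same probe sets kept, a choice made after seeing the data, most of the 6 calls were still lost. Their log2 differences then ran from -1.21 (Hoxa5) to -2.42 (Hoxa7) without replicate 6. Without replicate 10 they ran from -1.29 (Hoxd8, 160460_at) to -2.70 (Hoxa7). At 4+8 days 7 were lower and 1 higher than in feeder cells, with 14.9% and 12.5% (27.4% in all) called over all tested probe sets. Non-overlapping groups numbered 14 lower and 5 higher of 38 at 4+8 days, beside 21.5% and 22.8% of all (44.2% together). This split too depended on the scaling, with 4 lower and 8 higher at the deposited scale (median over all 0.64) and 5 lower and 6 higher after scaling to a common trimmed mean (0.25).

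Hoxd10, a posterior gene of cluster d with a role in lumbar motor neurons, read 15.8, 14.3 and 20.2 at 4+8 days, 9.65, 7.72 and 8.71 at 4+11 days, 60.8 and 34.0 in feeder cells and 34.7, 46.5 and 21.8 in undifferentiated cells. The 4+11 day arrays were the lowest, the 4+8 day arrays lay between, and feeder and undifferentiated arrays overlapped. It was the 1 Hox probe set called at 4+11 days against undifferentiated cells, where 3 were called with run as a block and 2 in a fit of those groups alone. Calls over all probe sets were 1668 in the main fit, 2541 with run as a block and 2498 in the fit of those groups. Hoxd10 had a log2 difference of -1.30 ± 0.26 (limma adjusted p = 0.00872) that held when each array was left out in turn. The difference measured -1.45 in run 1 and -0.92 in run 2. Against feeder cells it was -1.69 ± 0.29 at 4+11 days (adjusted p = 0.0138), lost without either feeder array (up to 0.157), and -1.12 ± 0.29 at 4+8 days (0.0193), lost without feeder replicate 6 (0.174) and at the deposited scale (-0.22, 0.633). Its fall of -0.74 ± 0.26 at 4+8 days against undifferentiated cells (adjusted p = 0.0492) was at the threshold, held under 4 of 13 alternatives and turned to 0.49 (adjusted p = 0.184) at the deposited scale.

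Hoxa5, which patterns the neck and lung, read 22.1, 27.5 and 40.2 at 4+8 days, 11.1, 15.4 and 15.5 at 4+11 days, 80.7 and 42.6 in feeder cells and 17.2, 37.9 and 23.5 in undifferentiated cells. The 2 feeder arrays differed widely from each other but exceeded all others. The log2 difference was -1.61 ± 0.33 for 4+11 day against feeder cells (adjusted p = 0.0303). It was lost whenever an array of either group was left out (up to 0.284) and, narrowly, with run as a block (0.0509), and measured -2.22 in run 1 and -1.11 in run 2.

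Against undifferentiated cells, few Hox probe sets were called, at shares near or below those of all probe sets. At 4+11 days 0 were higher and 1 was lower of 23 tested, beside 9.22% and 9.44% of all tested probe sets (18.7% together). Among all 38, 2 lay above and 6 below every undifferentiated array, beside 18% and 19.3% of all (37.4% together), with a median log2 difference of -0.05 against -0.03. At 4+8 days 4 were higher (Hoxa2, Hoxa4, Hoxb13 and Hoxc8) and 2 lower (Hoxa11 and Hoxd10), beside 17.2% and 19.9% of all (37.1% together). Of 38, 6 lay above and 3 below, beside 19.7% each way (39.4% together), with a median of 0.16 against 0.07. This split depended on the scaling: at the deposited scale, where the median log2 difference over all probe sets tested was 1.07, 22 Hox probe sets were called higher and 0 lower, and after scaling to a common trimmed mean, where it was 0.27, 12 were higher and 0 lower.

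Hoxa2, the anterior gene of the hindbrain and second branchial arch, read 98.2, 59.7 and 51.4 at 4+8 days, 38.9, 45.5 and 21.6 at 4+11 days, 41.9 and 34.2 in feeder cells and 24.9, 30.6 and 22.6 in undifferentiated cells. The 4+8 day arrays were above all others. The log2 difference from undifferentiated cells was 1.15 ± 0.28 at 4+8 days (adjusted p = 0.0104) and was called under all 13 alternatives. Hoxc8, given above, differed by 1.22 ± 0.26 (adjusted p = 0.00582), also called under all 13.

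Hoxb13, the 5′ end of cluster b and a gene of the tail and prostate, read 82.2, 27.9 and 58.6 at 4+8 days, 22.8, 15.2 and 26.0 at 4+11 days, 18.5 and 31.8 in feeder cells and 21.8, 5.78 and 7.20 in undifferentiated cells. Arrays of the 4+8 day group varied the most, and only replicates 1 and 3 exceeded the filter value, through which alone Hoxb13 was tested. The log2 difference from undifferentiated cells was 1.70 ± 0.39 (limma adjusted p = 0.00792), called under all 11 alternatives that kept the probe set. Those do not include leaving out replicate 1 or 3, after which Hoxb13 no longer passed the filter. They therefore cannot show whether the call depends on either array.

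Hoxa4, a gene of the cervical region, has 4 probe sets, which did not behave alike. The one called, 97747_r_at, read 568.5, 593 and 485 at 4+8 days, 216, 168 and 221 at 4+11 days, 281 and 187 in feeder cells and 275, 367 and 255 in undifferentiated cells. The 4+8 day arrays were above all others. Its log2 difference was 0.87 ± 0.22 at 4+8 days against undifferentiated cells (adjusted p = 0.0133), lost without undifferentiated replicate 1 or 9 (up to 0.0556), and 1.22 ± 0.25 against feeder cells (0.00710), lost without feeder replicate 10 (0.0883). The other 3 Hoxa4 probe sets did not exceed 36.1 on any array and were not tested. The suffix of 97747_r_at marks a set for which some of the usual probe rules were dropped, so its level may not be that of Hoxa4 alone.

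Hoxa11 was lower at 4+8 days than in undifferentiated cells, with a log2 difference of -1.23 ± 0.27 (adjusted p = 0.00692). It held without each array of either group, but not at the deposited scale (-0.15, 0.695) or after scaling to a common trimmed mean (-0.71, 0.0590). Hoxc6, which the filter removed, ran from 1.73 to 2.61 at 4+8 days and from 13.8 to 36.3 on the other 8 arrays. Without the filter it was lower at 4+8 days than in undifferentiated cells, with a log2 difference of -1.62 (limma adjusted p = 0.00156). Whether these low readings belong to the cells or to the separate scan session cannot be told apart.

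The 2 stages of differentiation were compared directly, with the same limit. At 4+11 days 1 tested Hox probe set was higher (Hoxa11) and 5 were lower (Hoxa4, Hoxa9, Hoxb1, Hoxc5 and Hoxc8) than at 4+8 days, beside 12.2% and 10.8% of all tested probe sets (23.1% together). Of the 38, 2 lay above and 13 below every 4+8 day array, beside 14.5% and 15.9% of all (30.4% together), and the median log2 difference was -0.27 against -0.03. The lower ones came from clusters a, b and c, and 0 of 4 tested in cluster d were called. At the deposited scale, where the median log2 difference over all probe sets tested was -0.65, 19 were lower and 0 higher. After scaling to a common trimmed mean, where it was -0.17, 15 were lower and 0 higher. Calls over all probe sets were 3733 and 2724 in these fits, against 2062 in the main fit, so this split too depended on the scaling.

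Hoxb1, the first gene of cluster b and a mark of the embryonic hindbrain, read 18.2, 16.5 and 15.8 at 4+11 days, 88.4, 71.4 and 30.4 at 4+8 days, 32.8 and 25.9 in feeder cells and 39.7, 35.9 and 25.3 in undifferentiated cells. The 4+11 day arrays were below all others, and 4+8 day replicate 3 lay within the range of the undifferentiated arrays. The log2 difference between 4+11 and 4+8 days was -1.42 ± 0.31 (adjusted p = 0.0123), called when each array was left out in turn. It was not called in a fit of the 2 groups alone (0.0630). Nor was it called without undifferentiated replicate 9 and 4+11 day replicate 12, which had other wash settings (0.0550). Hoxb1 was also lower at 4+11 days than in undifferentiated cells with run as a block (-0.65, adjusted p = 0.0287) and in a fit of those 2 groups alone (-0.73, 0.0231). Hoxc5, a cervical gene, read 7.01, 16.4 and 17.0 at 4+11 days, 38.3, 28 and 27.6 at 4+8 days, 35.3 and 36.2 in feeder cells and 19.8, 26.5 and 16.2 in undifferentiated cells. Its difference was -0.90 ± 0.24 (adjusted p = 0.0261), lost without 4+8 day replicate 1 or 4+11 day replicate 4 (up to 0.0937).

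For the members already described, the log2 difference between 4+11 and 4+8 days was -1.41 ± 0.22 for Hoxa4 (adjusted p = 0.00369), called under all 14 alternatives. It was -0.99 ± 0.26 for Hoxc8 (0.0250), lost without 4+8 day replicate 1 or 3 or 4+11 day replicate 4 (up to 0.0852), and -0.73 ± 0.23 for Hoxa9 (0.0451), called under only 4 of 12 alternatives. Hoxa11 was higher by 1.21 ± 0.27 (0.0134). That call did not pass when 4+11 day replicate 4 was dropped (0.0521), nor at the deposited scale (0.34, 0.428).

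**Figure D3:**
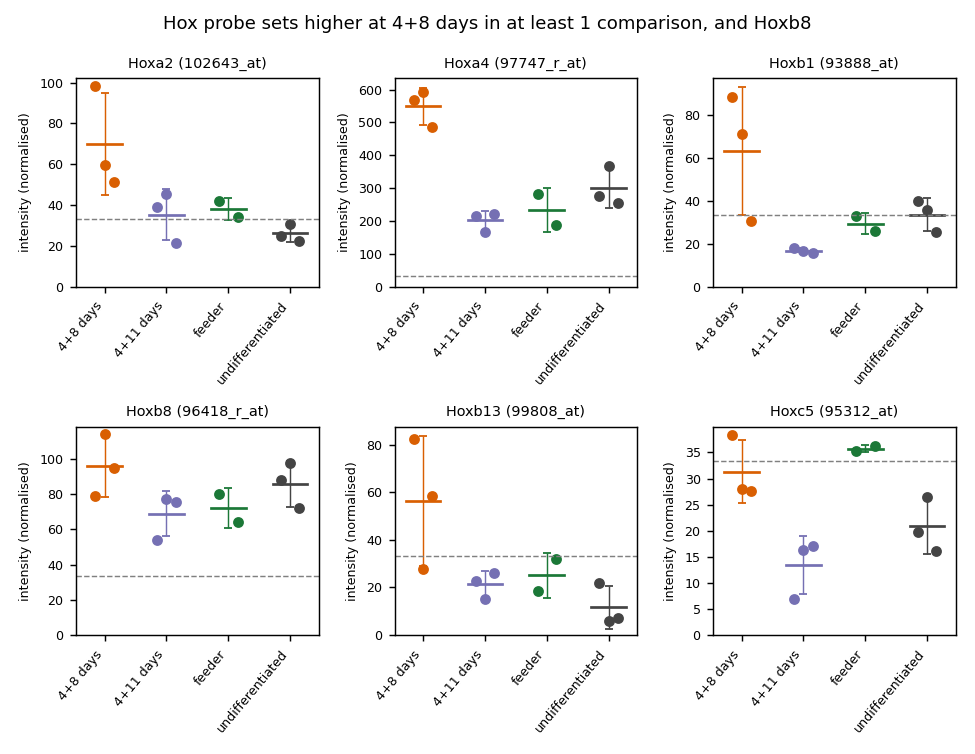
Normalised intensity (vertical axis of each panel, linear from 0) on each array of the Hox probe sets that were higher at 4+8 days in at least 1 comparison, and of Hoxb8; points are arrays, wide bars group means, thin bars SD and the dashed line the filter value, with the same order of groups. The 4+8 day arrays of Hoxa4 lie between 485 and 593, above all others, while those of Hoxb8 overlap the undifferentiated arrays.

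Apart from Hoxb1 and Hoxb13, the tested probe sets of cluster b had no called difference. Hoxb8 (96418_r_at), its member with the highest mean over all arrays, read 78.9, 114 and 95 at 4+8 days, 54.1, 77 and 75.5 at 4+11 days, 80.1 and 64.3 in feeder cells and 88.0, 97.6 and 71.9 in undifferentiated cells, and the groups overlapped except 4+11 with 4+8 days. Its second probe set, 96417_s_at, ran from 1.85 to 41.8 and was not tested. Hoxb6 exceeded the filter value on all 11 arrays, with 94.8 ± 26.9 at 4+8 days, 70.7 ± 23.3 at 4+11 days, 82.5 ± 16.3 in feeder cells and 61.6 ± 19.5 in undifferentiated cells (SD, n = 3, 3, 2 and 3). Hoxb7 averaged 55.9 ± 24.4 at 4+8 days, 55.3 ± 13.2 at 4+11 days, 84.8 ± 12.2 in feeder cells and 45.6 ± 8.91 in undifferentiated cells. Hoxb5 spanned 26.8 to 165 within the 4+8 day arrays and 18.1 to 68.9 elsewhere, and Hoxb3 spanned 11.2 to 72.8 within them and 6.62 to 44.5 elsewhere. For Hoxb5 and Hoxb3 the spread within the 4+8 day arrays was wider than any difference between group means.

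Of the remaining tested probe sets, Hoxa3 lay between 14.2 and 41.3, Hoxa6 (102580_r_at) between 17.2 and 66.5 and Hoxc4 between 12.1 and 41.6, with no called difference. For Hoxc4 both feeder arrays (39.9 and 40.1) were above all undifferentiated arrays, at most 23.9, but below 41.6, a 4+8 day array. The untested members exceeded the filter value on at most 1 array. Among them Hoxa10 read 25.9 and 26.6 in feeder cells and at most 18.3 elsewhere, and Hoxd9 read 27.4, 69.4 and 20.7 at 4+8 days and at most 29.1 elsewhere. Hoxb4 reached 32.6, Hoxb9 13.1, Hoxa13 11.9, and the 2 Hoxd1 probe sets 16.5 and 11.0. Hoxa6 (102579_f_at) reached 6.83. In all, 11 of the 38 exceeded the filter value on no array and 4 on a single array, and the filter left these 15 out of the main test. Without the filter, Hoxd12 differed by 1.20 at 4+8 days against undifferentiated cells (limma adjusted p = 0.00707) and by -1.22 between 4+11 and 4+8 days (0.0127), and Hoxd9 by -1.38 between 4+11 and 4+8 days (0.0340).

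**Figure D4:**
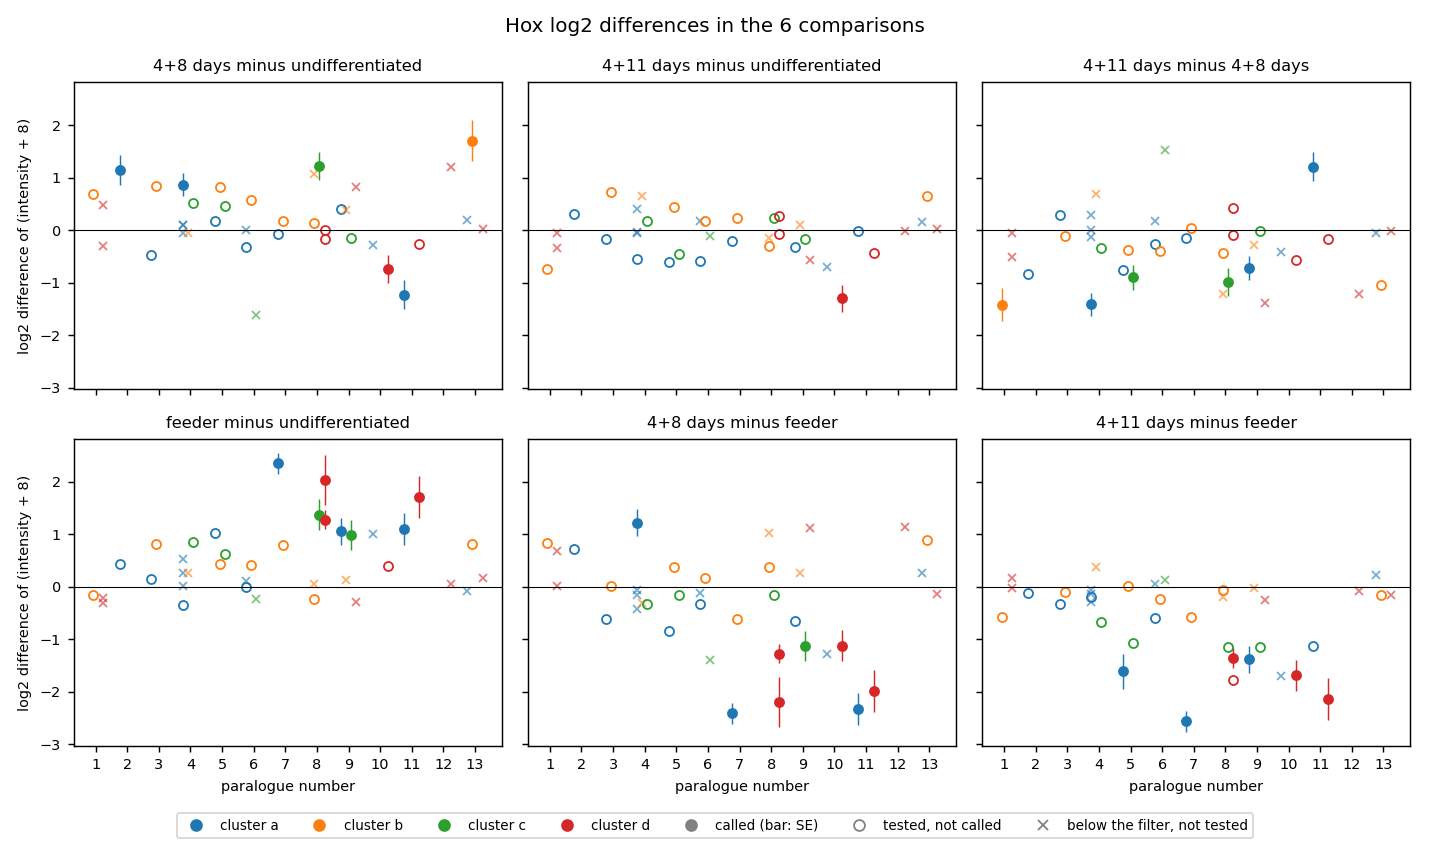
Difference in log2 of value plus 8 (vertical axis) for each Hox probe set against its paralogue number (horizontal axis), one panel per comparison, with colours for clusters filled points with SE bars for called, open points for tested and crosses for untested probe sets. In the feeder panels the called points are paralogues 5 to 11, apart from Hoxa4 at 4+8 days.

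Genes that act with or upon the Hox clusters, or lie beside them, were read from 5 lists, and their 4+8 day values carry the same limit of session. Against undifferentiated cells, the shares of all tested probe sets called higher and lower, to be read beside the counts that follow, were 17.2% and 19.9% at 4+8 days, 9.22% and 9.44% at 4+11 days, and 10% and 10.3% in feeder cells. Pbx and Meis proteins bind DNA together with Hox proteins, and geminin (Gmnn) binds them. Of 9 tested partner genes, 1 was higher and 2 lower at 4+8 days than in undifferentiated cells, 3 and 2 at 4+11 days, and 1 and 2 in feeder cells. Pbx3 rose by 2.63 ± 0.28 on the log2 scale at 4+8 days (adjusted p = 0.00018) and by 1.58 ± 0.28 at 4+11 days (0.00504). Meis1 was higher than in undifferentiated cells by 1.41 ± 0.41 at 4+11 days (adjusted p = 0.0381) and by 1.77 ± 0.45 in feeder cells (0.0226), and Meis2 by 1.73 ± 0.44 at 4+11 days (0.0238). Gmnn was lower by -1.69 ± 0.29 at 4+8 days (adjusted p = 0.00175) and by -1.52 ± 0.32 in feeder cells (0.0103). The median over the list was 0.10 at 4+8 days, 0.48 at 4+11 days and 0.12 in feeder cells, against 0.01, -0.03 and -0.02 over all tested.

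Polycomb complexes repress the Hox clusters and Trithorax proteins keep them active. Of 24 tested genes of both kinds, 3 were higher and 8 lower at 4+8 days than in undifferentiated cells, 2 and 4 at 4+11 days, and 3 and 8 in feeder cells. Phc1 (polyhomeotic), of the Polycomb complex that holds Ring1 proteins, was lower in all 3, by -2.27 ± 0.29 at 4+8 days (adjusted p = 0.000422), -2.62 ± 0.29 at 4+11 days (0.000552) and -2.83 ± 0.33 in feeder cells (0.000659). Its paralogue Phc2 was higher in all 3, by 1.76 ± 0.25 at 4+8 days (0.000677), 1.87 ± 0.25 at 4+11 days (0.00133) and 1.09 ± 0.28 in feeder cells (0.0218). Bmi1, of the same complex, was higher by 1.14 ± 0.30 at 4+8 days (0.0150), 1.85 ± 0.30 at 4+11 days (0.00372) and 1.96 ± 0.34 in feeder cells (0.00414). Eed, a core part of the methylating complex, fell by 2.38 ± 0.19 at 4+8 days (adjusted p = 3.6e-05). Jarid2, which recruits the methylating complex in ES cells, was lower by -1.96 ± 0.28 at 4+11 days (0.00211) and -3.92 ± 0.32 in feeder cells (0.000104). The list's median was -0.23, -0.20 and -0.50 in these comparisons, which share the undifferentiated arrays.

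Retinoic acid acts on the clusters through receptors bound at them. Of 14 tested genes, 5 were higher and 2 lower at 4+8 days than in undifferentiated cells, 1 and 1 at 4+11 days, and 0 and 0 in feeder cells, with medians of 0.57, 0.60 and 0.16. Rarg, a receptor, fell by 3.23 ± 0.28 at 4+8 days (adjusted p = 6.58e-05) and by 1.96 ± 0.28 at 4+11 days (0.00202). The 5 that rose at 4+8 days were the retinal dehydrogenase gene Aldh1a1 (2.81 ± 0.94, 0.0393), its relative Aldh1a7 (1.77 ± 0.31, 0.00207), Cyp26a1, which breaks retinoic acid down (1.64 ± 0.37, 0.00779), and the carriers Fabp5 (1.67 ± 0.29, 0.00213) and Rbp4 (1.57 ± 0.48, 0.0271). Of 9 tested upstream regulators, 1 was higher and 4 lower at 4+8 days, 0 and 2 at 4+11 days, and 1 and 2 in feeder cells, with medians of -0.57, -0.40 and -0.37. The lower ones included Pou5f1, which is also on the ES cell list, in all 3 comparisons. Pou5f1 was lower by -5.9 ± 0.24 at 4+8 days (adjusted p = 1.04e-06) and -6.92 ± 0.24 at 4+11 days (2.14e-07). It averaged 8.91 ± 2.86 in feeder cells and 2166 ± 538 in undifferentiated cells (SD). Gbx2, a hindbrain border factor, was lower by -2.83 ± 0.35 at 4+8 days (adjusted p = 0.000369), -2.09 ± 0.35 at 4+11 days (0.00418) and -2.97 ± 0.40 in feeder cells (0.00144). Of 12 tested genes that lie beside the clusters, 3 were higher and 2 lower at 4+8 days, 0 and 1 at 4+11 days, and 2 and 0 in feeder cells, with medians of -0.14, -0.02 and -0.19. Hibadh, beside cluster a, was lower by -1.58 ± 0.17 at 4+8 days (adjusted p = 0.000188) and -0.57 ± 0.17 at 4+11 days (0.0451).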

How the data were processed

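RNA of 11 samples was hybridised to MG_U74Av2 arrays. The authors deposited linear intensities per probe set; the method of summarising probes was not given in the sources used here. Scan sessions, chip lots and wash settings were read from the arrays' own headers, per the file headers. Fluidics runs were inferred from gaps between the recorded hybridisation times, and the 4+8 day arrays were assigned to none. Symbols came from the platform annotation, and samples were grouped by title.

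Trimmed means differed by a factor of 2.32, above the limit of 1.25, so intensities were quantile normalised and log2(value + 8) was fitted on the 4 groups with limma 3.58.1 in R 4.3.3 (lmFit, eBayes, 7 residual degrees of freedom), over the 8940 of 12422 non-control probe sets above 33.4 on at least 2 arrays, with Benjamini-Hochberg adjustment. The fit was tested on simulated data. The number of arrays limits the precision.

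The members and lists were chosen with earlier results of these data known. Values on every array are given for members called in a comparison whose groups do not overlap (at most 16) and for the member with the highest mean in each cluster. Of each list, only some genes were named. Alternatives were other scalings, pseudocounts and filters, fits of 2 groups, the fluidics run as a block, leaving out the arrays with other wash settings, and leaving out each array.

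Upstream stretches were read from RefSeq promoters (GRCm38.p6).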

Additional observations from a re-analysis of the deposited data

Results flagged for a closer look

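Change from undifferentiated cells differed between 4+11 and 4+8 days, by the limma test of the difference itself, for 6 of the 23 tested Hox probe sets. The undifferentiated cells cancel, so this is the direct comparison of the stages given above, with the same limits. It called 26.1% of the tested Hox probe sets and 23.1% of all tested probe sets. Hoxa9 was called under only 4 of 12 alternatives. The 4+11 day minus 4+8 day values were -1.41 for Hoxa4 (97747_r_at), -0.73 for Hoxa9, 1.21 for Hoxa11, -1.42 for Hoxb1, -0.90 for Hoxc5 and -0.99 for Hoxc8 on the log2 scale. The 2 stages were scanned in separate sessions, which cannot be told apart from the stages.

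A signal also appeared in a probe set annotated with both Hoxb8 and Hoxb7, 92915_s_at, which the rule of 1 symbol left out. It averaged 71.9 at 4+8 days (101, 59.1 and 55.5), against 37.8, 33.5 and 48.6 in undifferentiated cells, a log2 difference of 0.70 (limma adjusted p = 0.0428). It exceeded the filter value on all 11 arrays. No Hoxb8 or Hoxb7 probe set with 1 symbol was called in that comparison.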

How the results depend on the processing

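Of the 35 called differences of single probe sets, 11 were called under every alternative in which the probe set passed the filter, and 14 in every such fit with an array left out. For Hoxa7, Hoxa11 and Hoxd11 those fits do not cover the loss of a feeder array, nor for Hoxb13 the loss of its brighter 4+8 day arrays. At the deposited scale 22 Hox probe sets were called at 4+8 days against undifferentiated cells and 19 between 4+11 and 4+8 days, with 6052 and 3733 called over all probe sets. Scaled to a common trimmed mean the counts were 12 and 15, with 3963 and 2724 over all. In the main fit both Hox counts were 6, with 3316 and 2062 over all. The deposited scale also turned 5 differences that involve 4+8 days: against undifferentiated cells Hoxa7 to 0.84, Hoxc9 to 1.07, Hoxd8 (93221_at) to 0.99 and Hoxd10 to 0.49, and against feeder cells Hoxc5 to 0.80. With a filter at the 60th percentile, which keeps fewer probe sets, the counts were 1 at 4+8 days and 0 at 4+11 days against undifferentiated cells, 1 between 4+11 and 4+8 days, 2 for feeder against undifferentiated cells, 3 at 4+8 days and 1 at 4+11 days against feeder cells. Fits of 2 groups, with fewer arrays, gave 2 at 4+11 days against undifferentiated cells, 1 between 4+11 and 4+8 days and 4 at 4+8 days against feeder cells. Without the 2 arrays of other wash settings, with the 4+8 day arrays kept, the counts were 2 between 4+11 and 4+8 days and 4 for feeder against undifferentiated cells. The first of these counts thus still compares groups with different wash settings. With fluidics run as a block, 3 were called at 4+11 days against undifferentiated cells and 8 against feeder cells, where Hoxa11 (-1.13, adjusted p = 0.0171), Hoxc8 (-1.32, 0.0304) and Hoxc9 (-1.43, 0.0115) passed and Hoxa5 did not. Over all probe sets, 2541 and 710 were called in these comparisons with run as a block, against 1668 and 262 in the main fit.

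Leaving out each array gave 4 to 7 called at 4+8 days and 1 to 1 at 4+11 days against undifferentiated cells, 2 to 6 between 4+11 and 4+8 days, 1 to 7 for feeder against undifferentiated cells, 2 to 10 at 4+8 days and 0 to 6 at 4+11 days against feeder cells. With the same probe sets kept when a feeder array was left out, chosen after seeing the data, the counts were 2 for feeder against undifferentiated cells, 5 at 4+8 days and 2 at 4+11 days against feeder cells, without either array, with Hoxa7 called in each. The feeder comparisons thus rest on 2 arrays each, and calls over all probe sets fell as well when either was left out. No paired analysis was possible because the groups share at most 1 replicate number. Signal near background limits many members: the filter left out 15 of 38, and without it 7 and 1 were called at 4+8 and 4+11 days against undifferentiated cells, 8 between those stages, 7 for feeder against undifferentiated cells, and 10 and 6 at 4+8 and 4+11 days against feeder cells.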
